A study of Oryctolagus cuniculus with 12 samples.

Results

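The interleukin-1 (IL-1) family was followed in rabbit conjunctiva after trabeculectomy (TL), a glaucoma operation that drains aqueous humor under the conjunctiva and raises a filtering bleb there. Its 10 genes were taken by name from the table of 20566 genes: the cytokines IL1A, IL1B, IL36G, IL18, and IL33, the antagonist IL1RN, and the receptor genes IL1R1, IL1R2, IL1RAP, and IL1RL1. All 10 were present once, and all 10 had enough counts to be tested.

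The 12 RNA-sequencing libraries, 3 per group, were made from conjunctiva of female Japanese white rabbits. TL-3h, TL-3d, and TL-14d held right-eye conjunctiva with the bleb at 3 hours, at 3 days, and at 14 days, respectively, after TL with mitomycin C, a DNA crosslinker that limits scarring. The control group held conjunctiva of left eyes, without surgery. The labels give no age. The study's methods give 12 to 14 weeks for its rabbits, but the TL sequence data were taken from an earlier analysis. Whether this age holds for these libraries is not stated. The operation described in the study's methods ended with a conjunctival injection of betamethasone, a glucocorticoid, and an ointment of erythromycin and colistin, so the effects of surgery and of the drugs given with it cannot be told apart. Which control eye belonged to which operated eye, and when the control tissue was taken, is not given in the sources used here.

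IL-1α (from IL1A) and IL-1β (from IL1B) bind the signalling receptor IL1R1, which then recruits the accessory protein IL1RAP and activates NF-κB through MYD88 and IRAK kinases. IL1RN encodes a soluble antagonist that occupies IL1R1 without signalling, and IL1R2 encodes a decoy receptor that binds IL-1 but lacks a signalling domain. IL-33 signals through IL1RL1 (ST2) with the same accessory protein, IL-36γ (from IL36G) through IL1RL2 with IL1RAP, and IL-18 through IL18R1 with IL18RAP. IL-1α and IL-33 are held inside cells of barrier tissues and released on injury, whereas IL-1β and IL-18 are made as precursors that caspase-1 cleaves.

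Most of these genes lie in 2 clusters on chromosome 2 of the rabbit genome OryCun2.0. IL1RL1 (90078101 to 90113717), IL1R1 (90252494 to 90333554), and IL1R2 (90431285 to 90467268) lie within 389.2 kb together with IL1RL2. IL1A (97560391 to 97570279), IL1B (97614341 to 97618580), IL36G (97749540 to 97754528), and IL1RN (97875552 to 97881097) lie within 320.7 kb, a stretch that also holds IL37, IL36A, IL36RN, and IL1F10. IL33 (47918921 to 47960428) and IL18 (104215287 to 104234949) are on chromosome 1, and IL1RAP (86210312 to 86368101) is on chromosome 14.

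The total estimated count per library was 27111276 to 38591374, and a count of 0 allows a level of up to 0.0712 to 0.124 CPM (counts scaled to the library total), for counting error only. Levels below are CPM after TMM normalization unless FPKM is named. Differences between groups were tested with edgeR (quasi-likelihood), q is its Benjamini-Hochberg adjusted p-value over the 14835 genes tested, and the threshold was 0.05. The study describes its values as averages over eyes and the operation as done on the right eye, so the 3 operated eyes of a group came from different rabbits. For the control eyes this is not stated, and the p-values measure the spread between these libraries. Because the tissue was sequenced in bulk, fewer cells of a type and less RNA per cell cannot be told apart.

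Libraries stood apart from their groups in several ways. TL-14d replicate 1 had a mean correlation over genes of 0.952 with the control libraries and of 0.864 with the other libraries of its own group. In control replicate 3, the summed level of 7 neutrophil markers was 82.4 CPM, against 3.49 and 8.43 CPM in the other controls, and that of 6 glucocorticoid-induced genes was 1600 CPM, against 386 and 287 CPM. The summed level of 4 skeletal muscle genes was 271 CPM in control replicate 2 and 300 CPM in TL-3d replicate 3, against 0 to 6.8 CPM in the other libraries, and that of 6 fibroblast markers was 1070, 8630, and 45300 CPM in the TL-3d libraries. Surface epithelium genes (the keratins KRT4, KRT5, and KRT15 with TP63, EPCAM, and CDH1) were high in every library, with a summed level of 4550 to 16300 CPM. The corneal keratins KRT3 and KRT12 together reached 795 CPM in TL-14d replicate 2, against 21.8 to 321 CPM in the other libraries.

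At 3 hours after surgery, 7 of the 10 genes were higher than in the control group and none was lower. They were IL1A, IL1B, IL36G, IL1RN, IL1R2, IL1RAP, and IL1RL1. Over all genes tested, 23.2% were called higher and 22.2% lower in the same comparison. The median log2 fold change of the 10 genes was 3.00, against 0.02 over all genes. All 7 remained past the threshold under every alternative setting and whichever of the 12 libraries was left out. IL1R1, IL18, and IL33 did not pass.

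At 3 days, IL1A, IL36G, and IL1RAP were higher than in the control group and IL1R1 was lower. Over all genes tested, 10.6% were called higher and 7.0% lower. The 4 calls were less firm than those at 3 hours. The count fell to 0 without control replicate 1, control replicate 2, TL-3d replicate 1, or TL-3d replicate 2, and to 2 (IL1R1 and IL1RAP) without control replicate 3. In the 4 fits with a count of 0, the share of all genes called fell as well, to 3.25%, 2.46%, 2.97%, and 2.37% in the order named, while the log2 fold change of IL1A was 8.34 to 9.56, against 9.41 with all libraries. DESeq2 called 7, with IL1B, IL1RN, and IL1RL1 added, and 30.1% of all genes.

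At 14 days, edgeR called none of the 10 genes, and 0% of all genes. Of the 10 genes, 4 had an unadjusted p-value under 0.05, and of all genes 1538. DESeq2 called 4 of the 10 and 367 of all genes (2.47%). Without TL-14d replicate 1, edgeR also called 4 of the 10 (IL1A, IL1B, IL1RL1, and IL36G), and 4.74% of all genes. The 3 comparisons with the control group share the same control libraries and are not independent of each other.

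**Figure D1:**
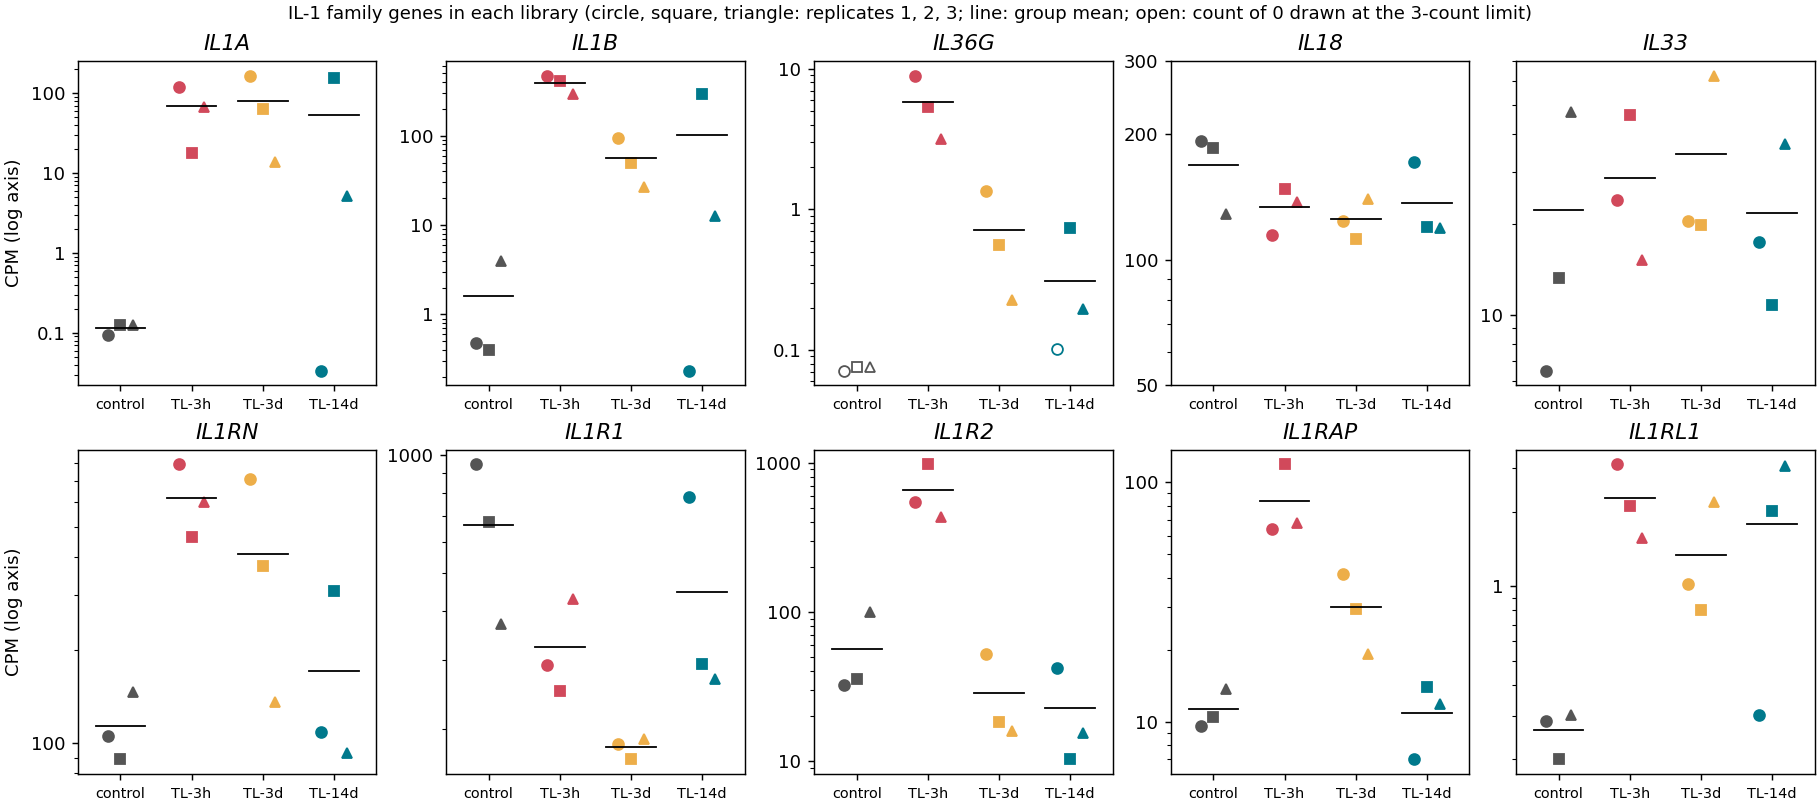
Level of each IL-1 family gene (CPM, log axis) in the 12 libraries, with circle, square, and triangle for replicates 1, 2, and 3, a line at the group mean, and open symbols for a count of 0 drawn at the level that 3 counts would give. IL1A, IL1B, IL36G, IL1RN, IL1R2, IL1RAP, and IL1RL1 lie above all controls in all 3 TL-3h libraries. How many of all genes do so was not counted. TL-14d replicate 1 lies at control level for IL1A, IL1B, IL36G, and IL1RL1.

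IL1A, the cell-held alarmin, was at 0.0949, 0.125, and 0.125 CPM in the control libraries, which is 4 to 5 counts each. Its level was 120, 17.6, and 67.2 CPM in TL-3h, and 165, 63.4, and 13.6 CPM in TL-3d. The 14-day libraries held 0.0336, 155, and 5.14 CPM. Every library at 3 hours and 3 days thus lay far above every control, with wide spread inside each group, while at 14 days 1 library was below the controls and 2 were above them. The mean rose from 0.115 ± 0.0175 CPM (SD, n = 3) to 68.4 ± 51.3 CPM at 3 hours, a log2 fold change of 9.17 (standard error 2.41, edgeR q = 0.0109). At 3 days it was 80.7 ± 77.3 CPM, a log2 fold change of 9.41 (standard error 2.43, edgeR q = 0.0291). At 14 days the log2 fold change of 8.82 did not pass (edgeR q = 0.346), and without TL-14d replicate 1 it was 9.40 (edgeR q = 0.0248).

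IL1B, the cytokine of activated myeloid cells, was at 0.475, 0.4, and 4.01 CPM in control eyes. The TL-3h libraries held 469, 411, and 293 CPM and the TL-3d libraries 94.2, 49.7, and 26.9 CPM. At 14 days the levels were 0.235, 296, and 12.7 CPM. Control replicate 3 was the highest control, and the 3-hour, 3-day, and control libraries did not overlap. IL1B rose from a mean of 1.63 ± 2.06 CPM (SD, n = 3) to 391 ± 89.3 CPM at 3 hours, a log2 fold change of 7.91 (standard error 2.09, edgeR q = 0.0111). Without control replicate 3 this log2 fold change was 9.74. At 3 days the mean was 57.0 ± 34.2 CPM, and the log2 fold change of 5.13 did not pass (edgeR q = 0.0773). It did pass with only the 6 libraries of the 2 groups (edgeR q = 0.0302) and without TL-14d replicate 1 (edgeR q = 0.0205). From TL-3h to TL-3d the IL1B level differed 6.86-fold between the means without passing the test (edgeR q = 0.206).

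The neutrophil markers and IL1B were both highest in TL-3h and lower in TL-3d. The summed level of these markers was 1050 to 2790 CPM in TL-3h, 126 to 739 CPM in TL-3d, and 3.36, 114, and 102 CPM in TL-14d, and all 6 that could be tested (S100A8, S100A9, S100A12, CXCR2, CSF3R, and FPR1) were higher at 3 hours. TL-14d replicates 2 and 3 had similar sums, with IL1B at 296 and 12.7 CPM. Of the 6 tested markers, S100A8, S100A9, and FPR1 were higher in replicate 2 than in replicate 3, and S100A12, CXCR2, and CSF3R were higher in replicate 3. MPO, the granule enzyme made in the bone marrow, was at most 0.114 CPM in any library. The monocyte and macrophage list was at 58.2 to 403 CPM in control eyes, 428 to 679 CPM in TL-3h, 1090 to 1560 CPM in TL-3d, and 70.4, 332, and 196 CPM in TL-14d. The part of these cells in the levels of IL-1 family genes was not tested.

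IL36G, an epithelial cytokine, had a count of 0 in all 3 control libraries. Its level was 8.92, 5.35, and 3.15 CPM in TL-3h, 1.35, 0.554, and 0.228 CPM in TL-3d, and 0, 0.733, and 0.195 CPM in TL-14d. Every library of the first 2 time points was above the controls, and at 14 days TL-14d replicate 1 was again at 0. Against the limit of 3 counts per control library, the mean was at least 78.6-fold higher at 3 hours (edgeR q = 0.00224) and at least 9.62-fold higher at 3 days (edgeR q = 0.0304). IL36G thus passed at both times, although only 8 to 54 counts stood behind the 3-day libraries. With only the TL-3d and control libraries it did not reach the count filter, so its 3-day test needed the libraries of the other times. The 3-day call was also lost without control replicate 1, 2, or 3 and without TL-3d replicate 1 or 2 (highest edgeR q = 0.085). The mean of TL-3d was 8.17-fold lower than that of TL-3h, which did not pass (edgeR q = 0.0641), while DESeq2 (q = 0.0227), limma-trend (q = 0.0187), and the fit to 6 libraries (q = 0.0192) did call it.

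IL18, which epithelia make constitutively, stayed within a narrow band. The control libraries held 193, 186, and 129 CPM, the TL-3h libraries 115, 148, and 138 CPM, the TL-3d libraries 124, 112, and 140 CPM, and the TL-14d libraries 172, 120, and 119 CPM. Control replicate 3 lay among the operated eyes, and the groups overlapped. The log2 fold change was -0.34 at 3 hours (edgeR q = 0.196), -0.43 at 3 days (edgeR q = 0.149), and -0.30 at 14 days (edgeR q = 0.621). At 3 hours the call depended on the library and the scaling: without control replicate 3 the value was -0.56 (edgeR q = 0.0407), and with library size alone as the scale it was -0.85 (edgeR q = 0.00828), a scale on which the median of all genes was -0.47.

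IL33, the nuclear alarmin that binds ST2, differed more within groups than between them. Control eyes held 6.5, 13.2, and 47.4 CPM and TL-3h 24.2, 46.3, and 15.2 CPM. In TL-3d it was at 20.5, 19.9, and 62.6 CPM, and in TL-14d at 17.5, 10.8, and 37 CPM. All 4 groups overlapped, and the log2 fold changes were 0.35, 0.62, and -0.04 (edgeR q = 0.744, 0.598, and 0.989). In each group, the library with the highest IL33 level was also the one with the highest summed level of 6 fibroblast markers: 53200 CPM in control replicate 3, 87700 CPM in TL-3h replicate 2, 45300 CPM in TL-3d replicate 3, and 39400 CPM in TL-14d replicate 3. In the same libraries the summed level of 6 endothelial markers was also the highest of each group, at 290, 1250, 559, and 290 CPM. Among the fibroblast markers, PDGFRA and DCN were higher in TL-14d replicate 1 than in replicate 3. LUM, COL1A1, COL1A2, and PI16 were higher in replicate 3. These matches were noticed after the values were seen, and the part of either cell type in the result was not tested.

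IL1RN, the receptor antagonist, was already abundant in the control group, at 106, 88.9, and 146 CPM. It was at 794, 462, and 600 CPM in TL-3h, 714, 373, and 136 CPM in TL-3d, and 109, 311, and 93.2 CPM in TL-14d. The 3-hour libraries were all above the controls, and at 3 days replicate 3 overlapped with them. IL1RN rose from a mean of 113 ± 29.2 CPM (SD, n = 3) to 619 ± 167 CPM at 3 hours, a log2 fold change of 2.45 (standard error 0.62, edgeR q = 0.00901). At 3 days the mean was 407 ± 290 CPM with a log2 fold change of 1.85 (edgeR q = 0.0603), which became 2.26 (edgeR q = 0.0279) without TL-3d replicate 3.

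IL1R1, the signalling receptor, was at 946, 675, and 371 CPM in control eyes. It was at 290, 249, and 429 CPM in TL-3h, 183, 167, and 188 CPM in TL-3d, and 780, 293, and 267 CPM in TL-14d. The 3-day libraries formed the tightest group, below all libraries of the other groups, and TL-14d replicate 1 lay within the control range. IL1R1 fell from a mean of 664 ± 288 CPM (SD, n = 3) to 180 ± 10.8 CPM at 3 days, a log2 fold change of -1.89 (standard error 0.46, edgeR q = 0.0238). At 3 hours the log2 fold change of -1.04 did not pass (edgeR q = 0.0816). Without control replicate 3, the lowest control, it was -1.39 (edgeR q = 0.0292), and without control replicate 1, the highest, it was -0.70 (edgeR q = 0.278). It was -1.56 with library size alone (edgeR q = 0.0180), -1.10 with DESeq2 (q = 0.0354), and -1.04 without TL-14d replicate 1 (edgeR q = 0.0230).

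IL1R2, the decoy receptor, was at 32.2, 35.7, and 100 CPM in control eyes and at 548, 973, and 431 CPM in TL-3h. It was at 52, 18.2, and 16 CPM in TL-3d and at 42.2, 10.3, and 15.5 CPM in TL-14d. The 3-hour libraries stood above every other library, and those of the later times overlapped with the controls or lay below them. IL1R2 rose from a mean of 56.0 ± 38.1 CPM (SD, n = 3) to 651 ± 285 CPM at 3 hours, a log2 fold change of 3.54 (standard error 0.73, edgeR q = 0.00325). From TL-3h to TL-3d it fell to 28.8 ± 20.2 CPM, a log2 fold change of -4.50 (standard error 0.77, edgeR q = 0.00147). Neither TL-3d nor TL-14d differed from the control group by the test, with log2 fold changes of -0.96 and -1.31 (edgeR q = 0.326 and 0.538).

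IL1RAP, the accessory protein shared by the receptors for IL-1, IL-33, and IL-36, was at 9.54, 10.5, and 13.7 CPM in control eyes. It was at 63.8, 119, and 68 CPM in TL-3h, 41.3, 29.6, and 19.2 CPM in TL-3d, and 6.96, 13.9, and 11.8 CPM in TL-14d. The first 3 groups did not overlap, and at 14 days the libraries lay around the controls. IL1RAP rose from a mean of 11.3 ± 2.21 CPM (SD, n = 3) to 83.6 ± 30.8 CPM at 3 hours, a log2 fold change of 2.89 (standard error 0.38, edgeR q = 0.000255). At 3 days the mean was 30 ± 11.1 CPM, which was higher than in the control group by a log2 fold change of 1.42 (standard error 0.36, edgeR q = 0.0276) and lower than at 3 hours by 2.79-fold (log2 fold change -1.48, standard error 0.36, edgeR q = 0.00929). The further difference from TL-3d to TL-14d, -1.46 on the log2 scale, did not pass (edgeR q = 0.0655), while DESeq2 called it (q = 0.00377).

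IL1RL1, which encodes the IL-33 receptor ST2, was the least abundant receptor. Its level was 0.285, 0.2, and 0.301 CPM in control eyes, 3.11, 2.12, and 1.57 CPM in TL-3h, and 1.02, 0.8, and 2.19 CPM in TL-3d. At 14 days it was 0.302, 2.01, and 3.06 CPM. All TL-3h and TL-3d libraries and TL-14d replicates 2 and 3 lay above all controls. TL-14d replicate 1 was at control level, with 9 counts against 8 to 12 in the controls. IL1RL1 rose from a mean of 0.262 ± 0.0542 CPM (SD, n = 3) to 2.27 ± 0.781 CPM at 3 hours, a log2 fold change of 3.10 (standard error 0.75, edgeR q = 0.00735). The log2 fold changes of 2.34 at 3 days and 2.76 at 14 days did not pass (edgeR q = 0.0530 and 0.346), and without TL-14d replicate 1 both did (2.34 and 3.25, edgeR q = 0.00935 and 0.0137).

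Between consecutive time points, IL1R2 and IL1RAP were lower at 3 days than at 3 hours and no gene of the family was higher. Of all genes, 18.4% were called higher and 19.0% lower. With only the 6 libraries of these groups, 5 of the 10 genes were called, near the 40.9% of all genes called in that fit. From 3 to 14 days edgeR called none of the 10 genes, 2 had an unadjusted p-value under 0.05 (3350 of the 14835 genes tested did), and DESeq2 called 2 (IL1R1 and IL1RAP) beside 12.5% of all genes, with 0.647% of all genes called higher and 1.59% lower by edgeR.

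**Figure D2:**
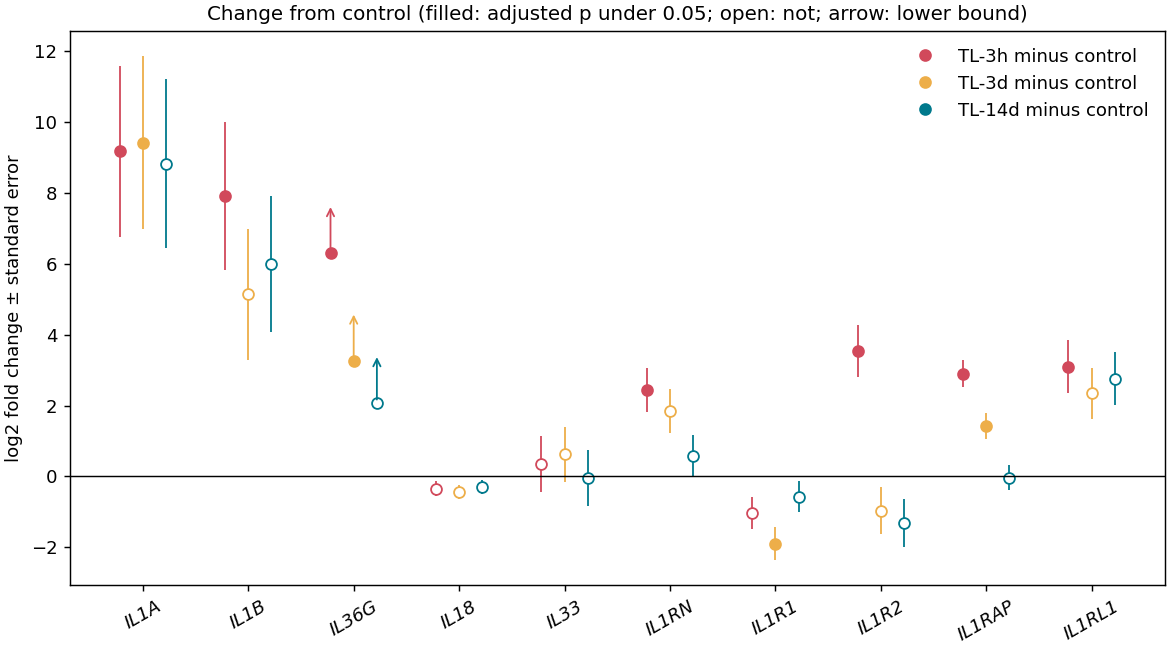
Log2 fold change of each gene in TL-3h, TL-3d, and TL-14d from the control group, with bars for the standard error of the edgeR fit, filled symbols for q under 0.05, and arrows for IL36G, whose values are lower bounds. The 3-hour values of 7 genes are filled, from 2.45 for IL1RN to 9.17 for IL1A, and no 14-day value is.

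Levels of different genes were compared by FPKM, the authors' value per transcript length. How that length was set is not given in the sources used here, and the order of genes and the point of equal levels depend on it. In the control group the family was led by IL18 (82.7 to 132 FPKM), IL1R1 (61.8 to 167 FPKM), and IL1RN (57.0 to 87.3 FPKM), whose ranges overlapped, followed by IL1R2 (20.3 to 59.3 FPKM) and IL33 (3.37 to 23.1 FPKM), whose ranges overlapped too. The range of IL1R2 also overlapped with that of IL1RN. IL1RAP (1.82 to 2.47 FPKM) lay within the range of IL1B (0.350 to 3.28 FPKM), and IL1RL1, IL1A, and IL36G were each under 0.2 FPKM. At 3 hours the leaders were IL1R2 (197 to 424 FPKM), IL1RN (203 to 358 FPKM), and IL1B (185 to 288 FPKM), again with overlapping ranges. IL18 (55.8 to 69.8 FPKM) then lay below all 3 of them, and IL1R1 (30.5 to 55.0 FPKM) below IL18.

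The make-up of the 5 cytokines as a share of their summed FPKM shifted from IL18 to IL1B. IL18 made up 97.2%, 94.6%, and 75.8% in the control libraries and 13.8%, 20.2%, and 23.8% in TL-3h, where IL1B made up 71.2%, 71.4%, and 64.6%. In TL-3d, IL18 made up 32.8%, 47.5%, and 60.3% and IL1B 31.6%, 26.7%, and 14.8%. The share of IL1A reached 30.6% in TL-3d replicate 1, its highest value in any library. At 14 days the 3 libraries differed most: IL1B made up 0.161%, 61.1%, and 9.67%. The summed FPKM was 109 to 136 in the control group, 286 to 405 in TL-3h, and 152 to 259 in TL-3d. In TL-14d it was 126, 422, and 112, so TL-14d replicate 2 was above every TL-3h library. FPKM carries no TMM scaling: the IL18 means of the control and TL-3h groups were 114 and 64.5 FPKM, against 169 and 134 CPM. These shares are of RNA and hold no information on cleaved or secreted protein.

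**Figure D3:**
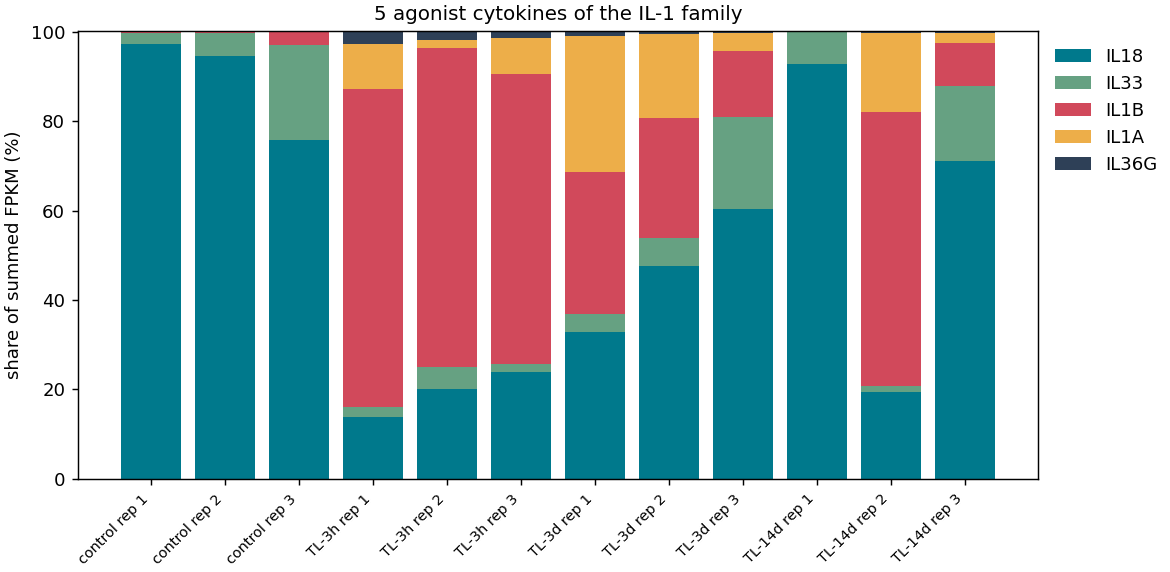
Share of the summed FPKM (%) of IL18, IL33, IL1B, IL1A, and IL36G in each library. IL18 holds 75.8% to 97.2% in the control libraries, IL1B 64.6% to 71.4% in the TL-3h libraries, and TL-14d replicates 1 and 2 resemble a control and a TL-3h library, with 92.7% IL18 and 61.1% IL1B.

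The balance of antagonist and agonists was followed by the ratio of IL1RN to the sum of IL1A and IL1B in FPKM within each library. The ratio was 144, 136, and 26.1 in the control libraries. It was 1.09, 0.806, and 1.33 in TL-3h and 2.82, 3.23, and 2.89 in TL-3d. At 14 days it was 300, 0.598, and 4.39. The control, 3-hour, and 3-day libraries did not overlap, and the 14-day libraries covered the whole range. IL1RN itself rose at 3 hours, while at 3 days its difference from the control group did not pass. The mean log2 ratio was 6.32 ± 1.4 (SD, n = 3) in the control group, 0.07 ± 0.36 in TL-3h, 1.57 ± 0.10 in TL-3d, and 3.21 ± 4.58 in TL-14d. The exact permutation test over the 4 groups did not pass (p = 0.0742, adjusted over the 2 ratios 0.0742). Without TL-14d replicate 1 the exact permutation p was 0.00526, and without TL-14d replicate 2 it was 0.0257.

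The ratio of decoy to signalling receptor, IL1R2 to IL1R1 in FPKM, was 0.121, 0.188, and 0.959 in the control libraries. It was 6.71, 13.9, and 3.58 in TL-3h, 1.01, 0.387, and 0.304 in TL-3d, and 0.193, 0.125, and 0.207 in TL-14d. On the FPKM scale, decoy RNA thus exceeded that of the signalling receptor in every 3-hour library, and among the other 9 libraries only in TL-3d replicate 1, by a margin of 0.01 on the log2 scale. The mean log2 ratio was -1.84 ± 1.57 (SD, n = 3) in the control group, 2.79 ± 0.98 in TL-3h, -1.02 ± 0.92 in TL-3d, and -2.55 ± 0.39 in TL-14d, and the exact permutation test over the 4 groups gave p = 0.00526 (adjusted 0.0105). The p-value was at most 0.0119 whichever library was left out. The neutrophil markers given above were at their highest in the same 3-hour libraries. TL-3h replicate 2, which had the highest IL1R2 level, was the highest of the 3 in the sums of neutrophil (2790 CPM), monocyte and macrophage (679 CPM), fibroblast (87700 CPM), and endothelial markers (1250 CPM). In TL-3d the neutrophil sums were above all controls while the IL1R2 levels were not. The glucocorticoid-induced genes had a summed level of 1460 to 1580 CPM in TL-3h, 213 to 236 CPM in TL-3d, and 197 to 554 CPM in TL-14d, beside the 1600 CPM of control replicate 3, the control with the highest IL1R2 level. Of the 6 glucocorticoid-induced genes, ERRFI1 alone was called at 3 hours. It was at 688, 588, and 733 CPM in TL-3h and at 43 CPM in control replicate 3, so much of the TL-3h sums was this gene. The part of the cells marked by these lists and of the glucocorticoid in the ratio was not tested.

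**Figure D4:**
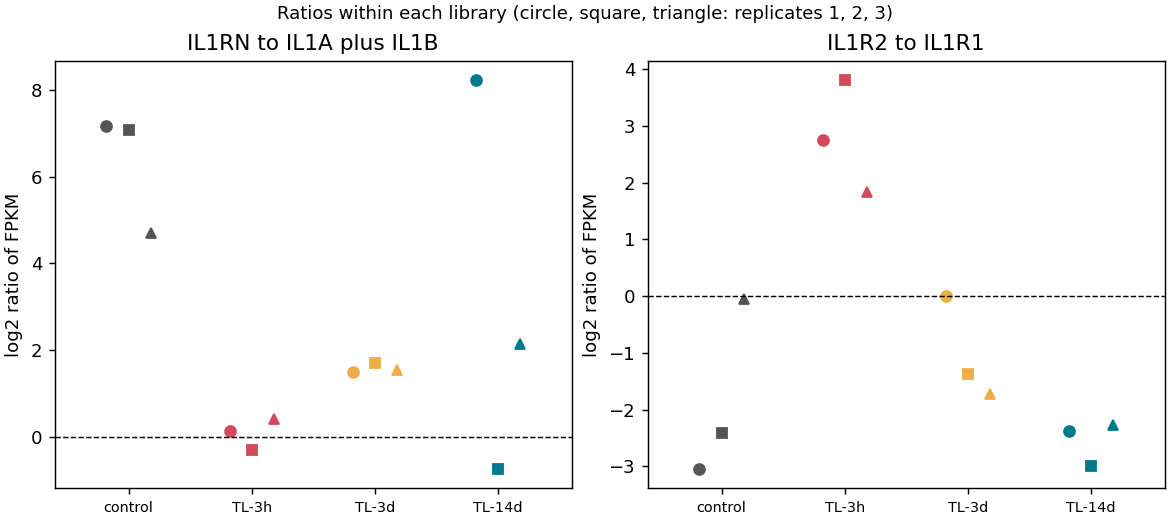
Log2 ratios of FPKM within each library, IL1RN to IL1A plus IL1B on the left and IL1R2 to IL1R1 on the right, with circle, square, and triangle for replicates 1, 2, and 3 and a dashed line at equal levels. On the left the 3-hour libraries lie near equality (-0.31 to 0.41), and on the right they alone lie clearly above it (1.84 to 3.80).

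The deposited files also hold estimated counts for 31 transcript models of the 10 genes, of which 26 could be tested. At 3 hours 11 models were higher than in the control group and 1 was lower, at 3 days 1 was higher and 2 were lower, and at 14 days edgeR called none, with 6 at an unadjusted p-value under 0.05 and 4 called by DESeq2, which called 1.82% of all transcripts. Over all transcripts, 14.1% were called higher and 14.1% lower at 3 hours, 3.24% higher and 1.88% lower at 3 days, and 0% at 14 days. The count of models called at 3 hours was 6 without control replicate 1 or control replicate 2, in fits that called 18.1% and 18.3% of all transcripts. At 3 days it was 0 without control replicate 1 or 2, TL-3h replicate 1 or 3, or TL-3d replicate 1 or 2, and 8, 6, and 1 without TL-14d replicates 1, 2, and 3, in fits that called 10.7%, 6.43%, and 2.28% of all transcripts. Of all transcripts, 0%, 0%, 2.46%, 2.43%, 0.0147%, and 0% were called in the 6 fits with a count of 0, in the order named. At 14 days the count of models was 2 without TL-14d replicate 1, beside 1.57% of all transcripts. Models of a gene share most of their sequence, so their counts are estimates that split shared reads. In simulated data the fit missed many changed transcripts, and a model that did not pass may still have differed. The models described next were chosen after their values were seen.

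The share of 1 IL1R1 model was higher in all TL-3d libraries than in the controls. The model XM_002709884.3 starts 37.7 kb downstream of the others and held 11.7%, 19.7%, and 27.2% of the IL1R1 transcript counts in the control libraries. It held 14.1%, 25.4%, and 20% in TL-3h, 41.3%, 49.4%, and 33.9% in TL-3d, and 21.7%, 39.5%, and 29.9% in TL-14d. All TL-3d libraries and TL-14d replicates 2 and 3 were above all controls. The upstream models XM_008253215.2 and XM_008253226.2 were lower at 3 days by log2 fold changes of -2.63 and -2.16 (edgeR q = 0.0365 and 0.0397), whereas the value for XM_002709884.3 was -0.66 (edgeR q = 0.209). The difference between these changes was not tested. At 3 hours XM_002709884.3 was the single model called lower, with a log2 fold change of -0.91 (edgeR q = 0.0464). The values for XM_008253215.2 and XM_008253226.2 were further below the control group, at -1.14 and -1.19, and did not pass (edgeR q = 0.156 and 0.095).

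IL18 and IL33 each had a model whose share of the gene's counts separated the control libraries from those of TL-3h and TL-3d, although the gene totals did not pass. The IL18 model XM_008258609.2, which starts 10.4 kb downstream of the longest one, held 25.9%, 24.2%, and 22% in the control libraries, 14.7%, 7.21%, and 11.3% in TL-3h, and 3.23%, 3.77%, and 11.1% in TL-3d. Its level did not pass at 3 hours or 3 days (log2 fold changes of -1.51 and -2.32, edgeR q = 0.104 and 0.0653). The IL33 model XM_008254994.2, whose start is 13.3 kb upstream of the next model's, held 4.14%, 2.28%, and 6.23% in the control libraries, 14.5%, 17.3%, and 18.1% in TL-3h, and 64.3%, 31.6%, and 14.7% in TL-3d. Its log2 fold changes of 1.97 and 2.99 did not pass either (edgeR q = 0.224 and 0.143). In TL-14d the shares were 34.0%, 10.7%, and 15.6% for the IL18 model and 1.98%, 45.1%, and 20.2% for the IL33 model. Replicates 2 and 3 thus lay on the same side of all controls as the TL-3h and TL-3d libraries, and replicate 1 on the other.

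**Figure D5:**
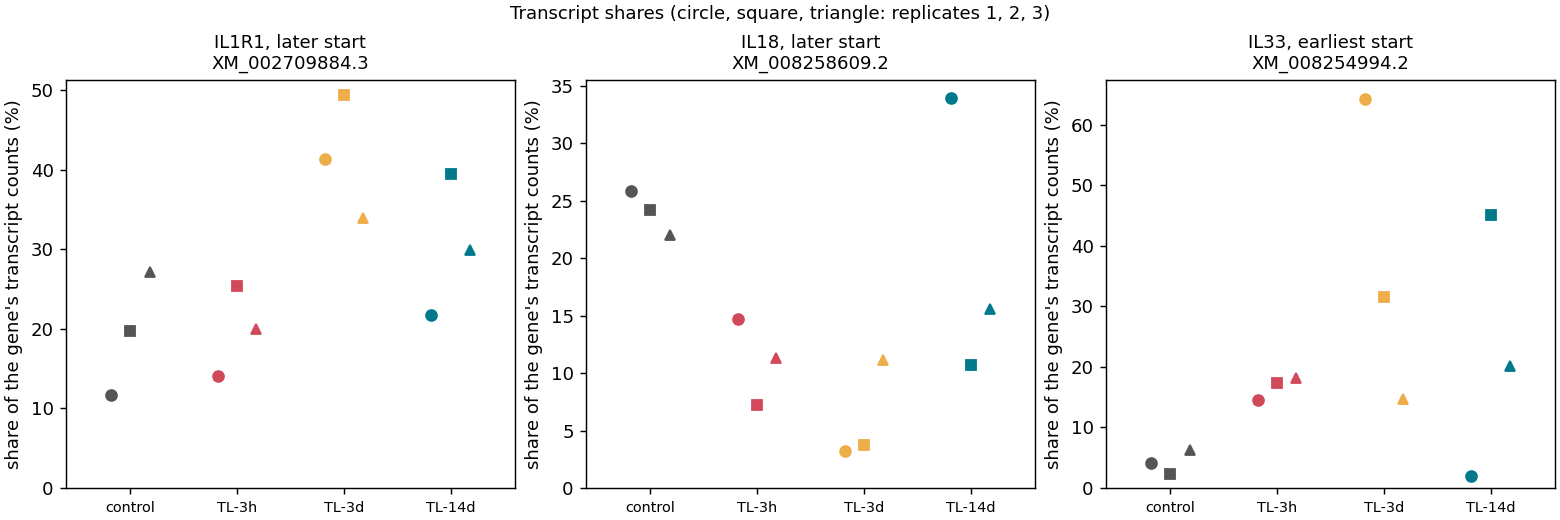
Share of a gene's transcript counts (%) held by 1 model of IL1R1, IL18, and IL33 in each library, with circle, square, and triangle for replicates 1, 2, and 3. The IL1R1 model holds 33.9% to 49.4% in TL-3d against 11.7% to 27.2% in the control group, and the IL18 and IL33 models separate the controls from all TL-3h and TL-3d libraries.

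The main model of IL1RAP and of IL1R2 was the same in all libraries. IL1RAP was mostly XM_017346990.1, which ends 8.4 kb before the other models and held 79.1% to 85.8% in all libraries. IL1R2 was mostly XM_008253249.2, with 84.9% to 96.2%. Its minor model XM_017339454.1 was at 0.809, 0.707, and 1.27 CPM in control eyes and at 50.7, 30.9, and 32.1 CPM in TL-3h, a log2 fold change of 5.35 (standard error 0.96, edgeR q = 0.00261), beside 3.41 for the main model (edgeR q = 0.00626).

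Genes around the family were read from 4 lists of 64 names, of which 56 were matched by name and 52 tested. At 3 hours 34 were higher and 5 lower than in the control group, with a median log2 fold change of 1.12 against 0.02 over all genes. The shares of all genes to read these counts and those of each list against were 23.2% higher and 22.2% lower at 3 hours and 10.6% higher at 3 days. At 3 days 13 were higher and 0 lower, and at 14 days edgeR called 0, while DESeq2 called 5, beside 2.47% of all genes. Without control replicate 2 the count at 3 days was 2, without control replicate 1 it was 3, and without TL-3d replicate 1 or 2 it was 4, in fits that called 2.46%, 3.25%, 2.97%, and 2.37% of all genes. Without TL-14d replicate 1 the count at 14 days was 5, beside 4.74% of all genes.

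Among 7 other ligands, receptors, and binding proteins of the family that were tested, 4 were higher at 3 hours and 3 at 3 days. IL36A, a second IL-36 agonist, rose from 0.208 ± 0.298 to 19.4 ± 15.1 CPM (SD, n = 3) at 3 hours (log2 fold change 6.53, edgeR q = 0.00496) and was at 0.139 ± 0.0711 CPM at 3 days. IL37, a family member with anti-inflammatory activity, rose from 0.025 ± 0.025 to 2.22 ± 1.62 CPM (edgeR q = 0.00195). The IL-18 receptor chains IL18R1 and IL18RAP rose at 3 hours by log2 fold changes of 2.15 and 2.86 (edgeR q = 0.0109 and 0.00907) and were still higher at 3 days by 2.11 and 2.53 (edgeR q = 0.0323 and 0.0387). IL1RL2, the IL-36 receptor, and IL36RN, its antagonist, did not pass at 3 days (log2 fold changes of 1.0 and 2.32, edgeR q = 0.146 and 0.136). IL18 receptor RNA was thus higher at both times while IL18 RNA itself was not called.

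Of 8 genes for processing and release, 4 were higher and 1 lower at 3 hours and 3 were higher at 3 days, and 1 of 8 lower is under the share of all genes. GSDMD, the pore protein through which IL-1β leaves cells, rose from 13.8 ± 1.89 to 99.9 ± 29.1 CPM (SD, n = 3) at 3 hours (log2 fold change 2.86, edgeR q = 8.81e-05) and was at 45.2 ± 13.9 CPM at 3 days (edgeR q = 0.0105). NLRP3, the inflammasome sensor, rose by a log2 fold change of 2.98 (edgeR q = 0.0181) at 3 hours. The calpains, proteases that can cleave pro-IL-1α, differed in direction: CAPN2 rose by 1.79 and CAPN1 fell by 1.13 on the log2 scale (edgeR q = 0.00413 and 0.0132). CASP1, the IL-1β converting enzyme, averaged 3.05 ± 0.886 CPM in control eyes and was called at 3 days alone, at 9.24 ± 2.03 CPM (log2 fold change 1.60, edgeR q = 0.0200). CTSS, a lysosomal protease, was likewise called at 3 days (log2 fold change 0.71, edgeR q = 0.0253).

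Of 19 signalling genes, 12 were higher and 3 lower at 3 hours, and 2 were higher at 3 days. The 3 lower genes are a smaller share than the 22.2% of all genes, and 2 of 19 at 3 days is near the 10.6% of all genes. MYD88, the adaptor, rose by 1.55 and IRAK1, its kinase, by 1.43 at 3 hours (edgeR q = 8.28e-05 and 0.000169), and these were the 2 still higher at 3 days, by 0.68 and 1.01 (edgeR q = 0.0211 and 0.0105). MAP3K8, a kinase of the ERK branch, rose from 9.27 ± 1.76 to 32.3 ± 1.35 CPM (SD, n = 3). TAB1, a partner of the kinase TAK1, fell from 25.9 ± 2.90 to 7.66 ± 0.299 CPM (log2 fold change -1.76, standard error 0.15). The other 2 lower genes, named after their values were seen, were MAPK14 (p38α) and TAB2, with log2 fold changes of -0.62 and -0.39 (edgeR q = 0.0180 and 0.0453). MAP3K7 (TAK1 itself) was higher by 0.88 (edgeR q = 0.00247). The inhibitor TOLLIP was higher at 3 hours (log2 fold change 0.55, edgeR q = 0.0172) and did not pass at 3 days (log2 fold change 0.44, edgeR q = 0.0764).

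Of 19 genes known to be induced by IL-1, 15 were higher and 1 lower at 3 hours, and 5 were higher at 3 days. CCL2, a monocyte chemokine, rose from 0.940 ± 1.08 to 431 ± 79.5 CPM (SD, n = 3) at 3 hours (log2 fold change 8.84, edgeR q = 0.000841), and was at 70.7 ± 23.9 CPM at 3 days (edgeR q = 0.0166). PTGS2, the inducible prostaglandin synthase, rose by 6.97, the RNase ZC3H12A by 2.07, and the superoxide dismutase SOD2 by 0.97 (edgeR q = 0.000281, 0.000516, and 0.000567). The collagenase MMP1 had a mean of 11 ± 7.33 CPM in control eyes, of 371 ± 64.7 CPM in TL-3h, and of 348 ± 196 CPM in TL-3d. For stromelysin MMP3 the control mean was 0.00836 ± 0.0145 CPM, the TL-3h mean 4.33 ± 1.86 CPM, and the TL-3d mean 26.9 ± 16 CPM (edgeR q = 0.0114). The single lower gene, named after its values were seen, was CCL20, with a control mean of 0.480 ± 0.282 CPM and a TL-3h mean of 0.0783 ± 0.0396 CPM.

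Lists of cell type markers gave these counts against the control group, at 3 hours first. Over all genes, 23.2% were called higher and 22.2% lower at 3 hours, and 10.6% and 7.0% at 3 days. With lists this short, a single gene called is not read as a result about its cell type. Neutrophil markers were higher for 6 of 6 and, at 3 days, 1 of 6, and macrophage markers for 2 of 6 and 4 of 6. Of 4 mast cell genes, 3 and then 2 were higher, and KIT was lower at both times. Of 7 T cell genes 1 was lower at 3 hours and none was called at 3 days. Of 6 surface epithelium genes 1 was higher at 3 hours, and at 3 days KRT5 was higher and KRT15 lower. Of 3 goblet cell genes 1 was lower at 3 hours, of 6 endothelial genes 2 were higher at 3 hours, and of the 2 corneal keratins KRT3 was higher at 3 days. None of the 6 fibroblast and 2 skeletal muscle genes tested was called. Of 6 glucocorticoid-induced genes, 1 was higher at 3 hours and 2 were lower at 3 days. At 14 days edgeR called none of these genes.

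The genes whose log2 CPM was most like that of a family member were taken by Pearson's r over the 12 libraries, among 13243 genes. These r values describe libraries that share their groups and their cell make-up, and carry no test. IL1B was most like CXCL8 (r = 0.990), a neutrophil chemokine, FPR2 (r = 0.984), a leukocyte receptor, and LOC100008716 (r = 0.979), annotated as alveolar macrophage chemotactic factor-like. IL1A was most like PTPN12, FSCN1, and CHST3 (r = 0.983, 0.979, and 0.977), and IL1RN like PTPN1, PPARD, and IVL (r = 0.973, 0.972, and 0.968), of which IVL encodes the epithelial envelope protein involucrin. IL36G was most like PRMT5, BZW2, and FAS (r = 0.990, 0.985, and 0.985). IL1RAP was most like SLC7A5, LIPN, and ETS1 (r = 0.988, 0.983, and 0.982) and IL1R2 like YBX3, EFCAB14, and SLC1A5 (r = 0.977, 0.976, and 0.970). IL1R1 was most like IVNS1ABP, ALAD, and LRRK2 (r = 0.975, 0.969, and 0.968). For IL1RL1 (INHBB, THBS1, and PDLIM7) and IL33 (RHOJ, SEPT4, and CACNA1C), r was 0.927 to 0.938.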

How the data were processed

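Paired-end reads of 150 bp were mapped by the authors to OryCun2.0 with STAR 2.6.0c (version per the submitters' processing notes), and the authors deposited estimated counts and FPKM values per gene and per transcript from GeneData Profiler Genome. The deposited estimated counts were not divided by library size (23.4% of gene values were fractions). How shared reads were split is not given in the sources used here. The FPKM values, which the authors scaled by depth and by a transcript length not defined in the sources used here, were used for ratios, shares, and levels between genes.

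Counts were rounded, filtered with filterByExpr (minimum count 10, minimum total 15), and normalized by TMM. The plan had named counts, and its test was kept for these estimated counts. All 12 libraries entered 1 edgeR 4.0.16 quasi-likelihood fit under R 4.3.3 without covariates, for 14835 of 20566 genes and 26082 of 38710 transcripts. TL-3h factors were 0.768 to 0.783, the others 1.03 to 1.13. Log2 fold changes used a prior count of 0.125. A fold against a group with 0 counts in all libraries used the floor of 3 counts per library. Libraries were grouped by their labels, and no 2 were copies. Ratios (log2, pseudocount 0.01 FPKM) were compared by an exact two-sided permutation test over 369600 assignments. Alternatives were DESeq2 1.42.0, its size factors alone, library size only, limma-trend (limma 3.58.1, prior count 2), no filter, the 6 compared libraries only, the replicate number as a block, each library left out, and for the ratios CPM or a pseudocount of 0.1 or 1.

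The genes, lists, and tests were chosen with earlier results of these data known. Named genes were all 10 members, the 3 genes most like each (mean at least 1 CPM; those for IL18 are not reported here), and, from each pathway list, up to 4 genes with the smallest q at TL-3h and up to 2 more at TL-3d. Single marker genes of cell types and ERRFI1 were named after their values were seen. The scripts were tested on simulated data. Recovery of changed transcripts there was lower than the condition first set, which was then relaxed without a change to the fit, so power was low, for transcripts above all.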

Additional observations from a re-analysis of the deposited data

Results flagged for a closer look

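The change from the control group differed between 3 hours and 3 days for IL1R2, by -4.50 on the log2 scale (standard error 0.77, edgeR q = 0.00147). The same held for IL1RAP, by -1.48 (standard error 0.36, edgeR q = 0.00929). Both values are the direct comparison of TL-3d with TL-3h, in which the control group cancels out, and both genes were lower at 3 days in 3 of 3 libraries. Groups of 3 libraries were too small to be searched for outlying values.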

How the results depend on the processing

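Counts of family genes called moved by over 1.5 times with DESeq2 (7 at TL-3d, 4 at TL-14d, and 2 for TL-14d against TL-3d) and with only 6 libraries (5 for TL-3d against TL-3h). Counts of listed pathway genes moved with DESeq2 to 20 at TL-3d and 5 at TL-14d (30.1% and 2.47% of all genes). Counts of transcript models called at TL-3d were 13 with DESeq2, 5 with limma-trend, 6 with only 6 libraries, and 1 with the replicate number as a block (18.6%, 8.03%, 10.1%, and 4.0% of all transcripts), and DESeq2 gave 4 at TL-14d. Over the fits that left out 1 library each, family genes called ranged from 0 to 6 at TL-3d and from 0 to 4 at TL-14d, listed genes from 2 to 17 at TL-3d and from 0 to 5 at TL-14d, and transcript models from 6 to 15 at TL-3h, 0 to 8 at TL-3d, and 0 to 2 at TL-14d. In these fits 2.37% to 25.0% of all genes were called at TL-3d and 0% to 4.74% at TL-14d. Of all transcripts, 18.1% to 29.6% were called at TL-3h, 0% to 10.7% at TL-3d, and 0% to 1.57% at TL-14d. For the ratio of IL1RN to IL1A plus IL1B, the difference of TL-3h from the control group stayed between -7.05 and -5.82 on the log2 scale when 1 library was left out, and the exact p-value was 0.00526 to 0.155. Directions turned for values that did not pass the test. With library size only, IL33 at TL-3h was -0.10 and IL18 in TL-3d against TL-3h was 0.38. With limma-trend, IL33 at TL-14d was 0.26, IL1A in TL-3d against TL-3h was 0.00, and IL1B in TL-14d against TL-3d was -2.28. With 1 library left out, against the control group, IL33 ranged from -0.22 to 1.49 at TL-3h, -0.15 to 1.79 at TL-3d, and -0.66 to 1.14 at TL-14d, and at TL-14d IL1RN from -0.17 to 0.89 and IL1RAP from -0.26 to 0.19. In TL-3d against TL-3h, IL1A ranged from -0.83 to 0.97, IL18 from -0.17 to 0.02, and IL33 from -0.50 to 0.84. In TL-14d against TL-3d, IL1A ranged from -4.96 to 0.48, IL1B from -3.14 to 1.44, IL1R2 from -1.16 to 0.40, IL1RL1 from -0.20 to 0.97, IL18 from -0.07 to 0.22, and IL33 from -1.28 to 0.10. The causes were not tested. Of 947 values of single genes under an alternative, 867 kept their direction and their side of the threshold. Library size only moved the median of all genes at TL-3h from 0.02 to -0.47 and the genes called higher and lower from 3435 and 3298 to 1889 and 5673. Replicate numbers were shared by the groups, but only 8 of 18 same-numbered pairs had deviations correlated over 0.1 (lowest -0.171), so they were not read as pairs. With the number as a replicate block, IL33 at TL-14d was 0.20, IL1A in TL-3d against TL-3h was -0.44, and IL33 in TL-3d against TL-3h was -0.16, and the exact p-values of the ratios were 0.0990 and 0.0226. Depth limits IL36G and IL1A in the control group, where libraries held 0 to 5 counts.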
